A study of Danio rerio with 4 samples.

Results

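Bmal, Clock and ROR proteins form the activating arm of the circadian clock, and their transcripts were examined in RNA from eyes of adult zebrafish, 3.5 months post-fertilisation. The members are the genes bmal1a, bmal1b, bmal2, clocka, clockb, npas2, rorca, rorcb, roraa and rorab. Of these 10 listed genes, 9 have a probe set with a single gene symbol in the array annotation, out of 19260 genes that have one. The gene rorca was not analysed here. Probe sets were to be selected on the highest mean signal of a gene over the 4 arrays, but each of the 9 had 1 probe set, so that this left no choice. The genes themselves were chosen by their role, with their readings on these arrays known.

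The study used 4 Affymetrix arrays, 1 per genotype. The genotypes were eys+/-; lrp5+/- fish, heterozygous at both loci and called double heterozygotes here, eys-/- homozygotes, lrp5-/- homozygotes, and wildtype fish. All were kept at 28.5°C under 14 hours of light and 10 hours of darkness, and each sample held eyes of both sexes, per the labels. The number of fish pooled for an array, the nature of the eys and lrp5 alleles, and the hour at which the eyes were taken are not given in the sources used here. Clock transcripts cycle over the day, so genotype and hour of collection cannot be told apart in these arrays.

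In vertebrates a Bmal protein pairs with Clock or with its relative Npas2, and the pair binds E-box elements and activates the genes of its own repressors, the periods and cryptochromes, and those of the Rev-erb nuclear receptors. ROR receptors activate and Rev-erb receptors repress through shared response elements, and in mammals the Bmal1 gene is among their targets. Zebrafish tissues, the eye included, hold clocks of their own that light can set, and the retina of vertebrates is a site of rhythmic gene expression. The genome duplication in the ancestry of teleost fish left pairs of genes such as bmal1a and bmal1b.

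Values are log2 signals of single arrays, and a difference of 1 is 2-fold. With 1 array per genotype there is no spread between fish, no p-value is given, and each difference compares 2 arrays. Genes are called measured in a comparison if at least 1 of their 2 readings reached 6.57, the median reading of probe sets with 1 symbol. The spread of differences over all measured genes, as a robust SD, was between 0.17 and 0.23 in the 6 pairs of arrays and serves as the only yardstick of size. Readings of different probe sets are not compared with each other.

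The arrays were alike as a whole. Their medians lay between 5.03 and 5.06, and pairs of arrays correlated at 0.978 to 0.983 over all 75212 probe sets. No probe set carries the name eys, and the probe set of lrp5 read 6.92 in the double heterozygote, 7.27 in eys-/-, 7.17 in lrp5-/- and 7.39 in wildtype, which does not check the labels because the position of the mutation on the transcript is not stated. Of 30 marker names for cells of the eye and of tissues that could come with it, 26 were matched and 24 of these were at or above 6.57 on all 4 arrays, among them markers of rods, cones, bipolar cells, Muller glia, lens, red blood cells and skeletal muscle. The pineal opsin exorh was below that level on every array. The rod opsin rho, arr3a and the globins hbaa1 and hbba1 were not analysed here. Against wildtype, 0 of 25 measured markers differed by 2-fold or more in any genotype. Of all measured genes, 0.489% were lower and 1.23% higher by that much in the double heterozygote. The shares were 0.307% and 0.326% in eys-/-, and 0.278% and 0.393% in lrp5-/-. With shares that low, the count does not show that the eyes were alike in their cells. The marker differences ran from -0.70 (epcam) to 0.70 (rpe65a) in the double heterozygote. They ran from -0.60 (ckma) to 0.63 (myl1) in eys-/- and from -0.72 (epcam) to 0.60 (rpe65a) in lrp5-/-. All of these but the 0.70 of rpe65a lay outside the central 95% of all measured genes. The part of these markers in the differences below was not tested. In whole eyes, fewer cells of a type and less RNA per cell cannot be told apart.

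All 8 measured activators read lower in the double heterozygote than in wildtype, as did 49.7% of all measured genes, and 4 of the 8, bmal1a, bmal1b, npas2 and rorcb, by 2-fold or more. Of all 10434 measured genes, 0.489% were lower by that much and 1.23% higher. In eys-/- none of the 8 passed 2-fold in either direction (background 0.307% lower and 0.326% higher). In lrp5-/- 2 of 8, bmal1a and rorcb, were lower by 2-fold or more, against 0.278% of all measured genes, and 0 were higher (background 0.393%). The gene bmal1a entered the double heterozygote and lrp5-/- counts through its wildtype reading only. Its readings of 4.83 and 5.61 on those arrays lay below 6.57. The list was put together with the readings of these arrays known, so these counts describe it and are no test of it.

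**Figure D1:**
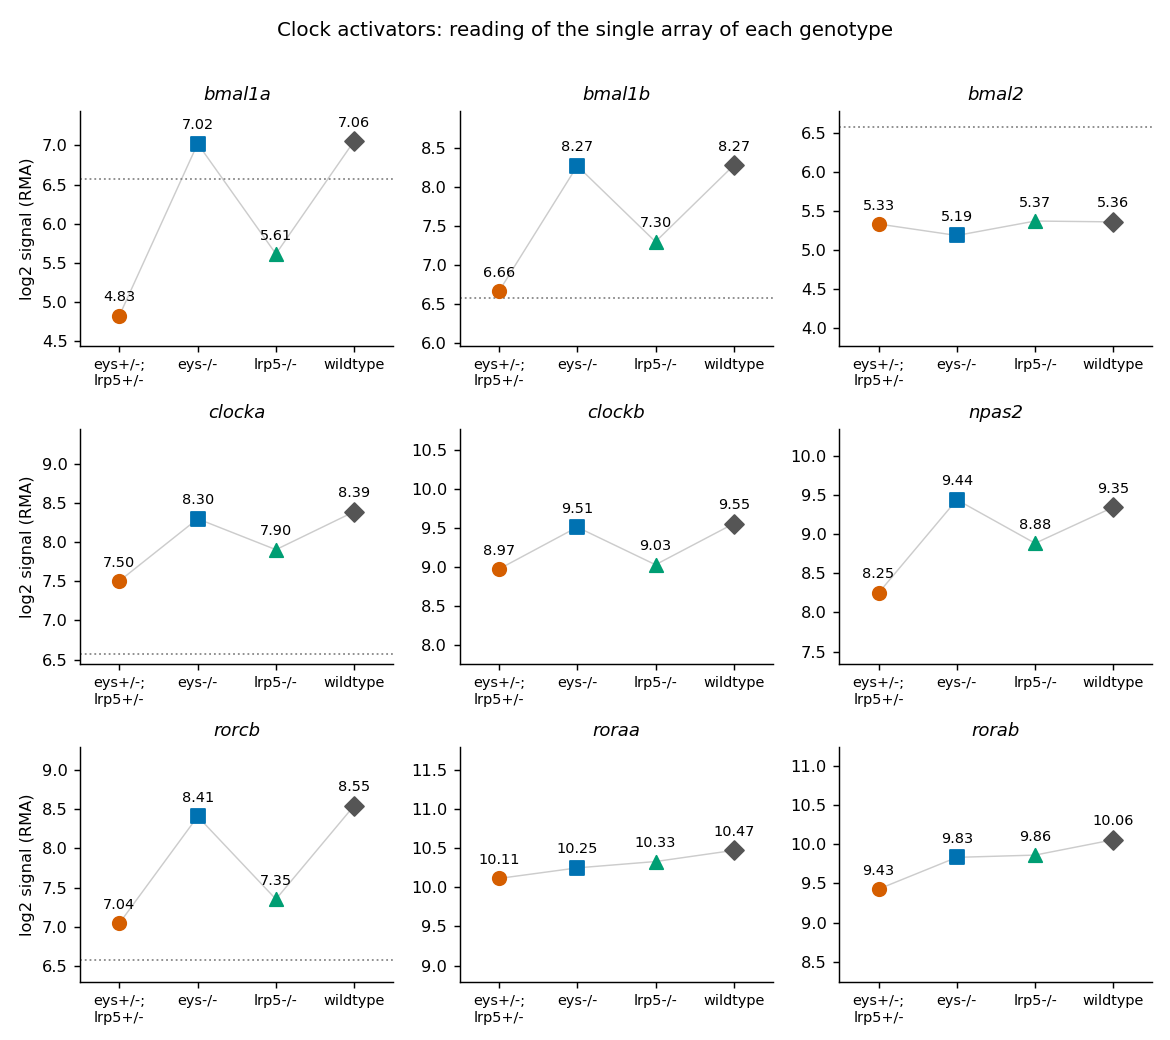
Log2 signal (vertical axis) of the 9 members on the array of each genotype (horizontal axis), 1 point per array with its value. Every panel spans the same number of log2 units but starts at its own level, and the grey line only joins the points. The dotted line marks the measured level of 6.57 and falls outside the panels of clockb, npas2, roraa and rorab. The double heterozygote has the lowest point in every panel except that of bmal2.

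Of the Bmal genes, bmal1a differed most. It read 4.83 in the double heterozygote, 7.02 in eys-/- and 5.61 in lrp5-/-, against 7.06 in wildtype. The double heterozygote and lrp5-/- were thus low, and eys-/- was near wildtype. The difference from wildtype was -2.23 in the double heterozygote, which leaves 21.3% of the wildtype signal, -0.03 in eys-/- and -1.44 in lrp5-/-. In the double heterozygote 2 of 10434 measured genes, bmal1a included, had a difference that low, and in lrp5-/- 10 of 10426 did. In both comparisons bmal1a was measured through its wildtype reading only, so these ranks are uncertain. The reading of 4.83 is below the median of its array and not shown to be above background, so the size of the largest difference is uncertain.

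The second copy, bmal1b, was also lowest in the double heterozygote and next lowest in lrp5-/-, and reached 6.57 on all 4 arrays. It read 6.66 in the double heterozygote, 8.27 in eys-/- and 7.30 in lrp5-/-, against 8.27 in wildtype. Its differences of -1.61 in the double heterozygote and -0.98 in lrp5-/- correspond to 32.8% and 50.8% of the wildtype signal, and the second of them fell just short of 2-fold. In eys-/- the difference was -0.01, within the robust SD of 0.19 for genes of like level. How far the copies differ in size cannot be read from these arrays, because bmal1a read below 6.57 in the double heterozygote and in lrp5-/-.

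The third Bmal gene, bmal2, whose product can also pair with Clock, was low on every array. It read 5.33 in the double heterozygote, 5.19 in eys-/- and 5.37 in lrp5-/-, against 5.36 in wildtype. All 4 readings lay below 6.57, so bmal2 was measured in none of the comparisons. Its readings spanned 0.18, less than the robust SD of 0.26 between the double heterozygote and wildtype for genes of like level.

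The Clock genes encode the partners of Bmal. Their member npas2, which can stand in for Clock in mammals, read 8.25 in the double heterozygote, 9.44 in eys-/- and 8.88 in lrp5-/-, against 9.35 in wildtype. It was the only activator that read higher in eys-/- than in wildtype, by 0.10, which is within the robust SD of 0.21. The difference from wildtype was -1.10 in the double heterozygote and -0.46 in lrp5-/-.

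The reading of clocka was 7.50 in the double heterozygote, 8.30 in eys-/- and 7.90 in lrp5-/-, against 8.39 in wildtype. As for bmal1b, the double heterozygote was lowest and lrp5-/- next. The differences from wildtype were -0.89 in the double heterozygote, -0.09 in eys-/- and -0.49 in lrp5-/-. For clockb the readings were 8.97 in the double heterozygote, 9.51 in eys-/- and 9.03 in lrp5-/-, against 9.55 in wildtype. Here the double heterozygote and lrp5-/- arrays were close, with differences from wildtype of -0.58 and -0.53, while that of eys-/- was -0.05. Neither clocka nor clockb reached 2-fold in any comparison.

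The ROR genes split. The retinoid-related orphan receptor gene rorcb read 7.04 in the double heterozygote, 8.41 in eys-/- and 7.35 in lrp5-/-, against 8.55 in wildtype. Both low arrays were more than 2-fold below wildtype, with differences of -1.50 (35.3% of the wildtype signal) in the double heterozygote and -1.20 (43.6%) in lrp5-/-. In eys-/- the difference was -0.14, within the robust SD of 0.18.

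In the Ror alpha pair no difference reached 2-fold. The readings of roraa were 10.11 in the double heterozygote, 10.25 in eys-/- and 10.33 in lrp5-/-, against 10.47 in wildtype, and those of rorab were 9.43 in the double heterozygote, 9.83 in eys-/- and 9.86 in lrp5-/-, against 10.06 in wildtype. For both, wildtype was highest, and the difference in eys-/- was -0.22. In lrp5-/- roraa and rorab differed by -0.14 and -0.20, about as far as in eys-/-, so the gap between lrp5-/- and eys-/- in rorcb was not seen in their readings. In the double heterozygote the differences were -0.36 for roraa, inside the central 95% of all measured genes, and -0.63 for rorab, below it. The related gene rorb is a retinal ROR that is not a member. It read 9.81 in the double heterozygote, 9.68 in eys-/-, 9.92 in lrp5-/- and 9.63 in wildtype. Its differences from wildtype were 0.18 in the double heterozygote, 0.05 in eys-/- and 0.29 in lrp5-/-. The values of 0.18 and 0.05 were within the robust SDs of 0.23 and 0.20 over all measured genes. No side of wildtype can be read from these values.

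**Figure D2:**
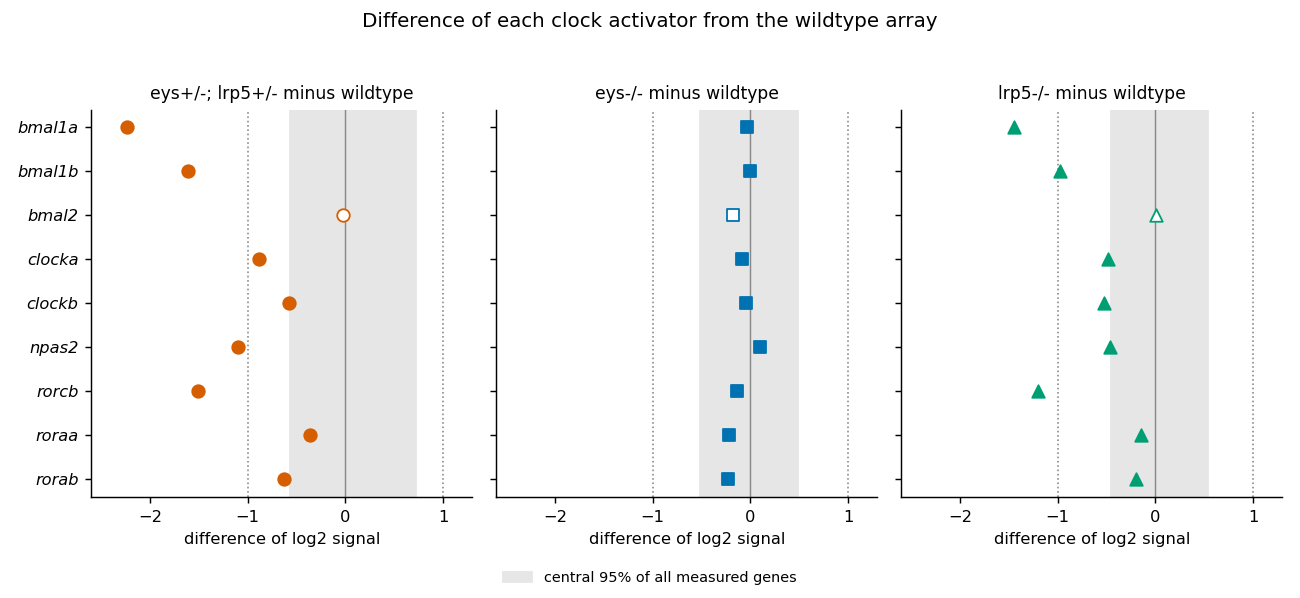
Difference of log2 signal from the wildtype array (horizontal axis) for each member (rows) in the double heterozygote, eys-/- and lrp5-/-. The grey band holds the central 95% of all measured genes, and dotted lines mark 2-fold. Open symbols are members with both readings of a comparison below the measured level. The symbols of bmal1a are filled, though its double heterozygote and lrp5-/- readings lay below that level. In the double heterozygote 7 of 8 measured members lie left of the band, in eys-/- 0 of 8 and in lrp5-/- 6 of 8.

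As a group the 8 measured activators had a median difference from wildtype of -0.99 in the double heterozygote, with a range of -2.23 to -0.36. The median over all measured genes was 0.0016. In eys-/- the median of the activators was -0.07 with a range of -0.22 to 0.10 (-0.01 over all measured genes), and in lrp5-/- it was -0.51 with a range of -1.44 to -0.14 (-0.00014 over all measured genes). The central 95% of all measured genes ran from -0.57 to 0.72 in the double heterozygote, from -0.52 to 0.49 in eys-/- and from -0.46 to 0.54 in lrp5-/-. These 3 comparisons share the wildtype array.

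The order of the arrays was largely shared among the activators. The double heterozygote had the lowest reading in 8 of 8 members that reached the measured level on any array, as it did in 25.6% of the 10743 genes that reached it. In 6 of the 8, all but roraa and rorab, lrp5-/- was the next lowest, an order found in 12.5% of those genes. Some of these ranks rest on small gaps. For clockb the double heterozygote differed from lrp5-/- by -0.06, within the robust SD of 0.16 for genes of like level. For roraa it differed from eys-/- by -0.14, within a robust SD of 0.25. For bmal1a the double heterozygote and lrp5-/- were not measured against each other. Measured as a share of the difference between the double heterozygote and wildtype on the log2 scale, the lrp5-/- array lay at 31.1% for rorab, 39.9% for roraa, 42.1% for npas2, 54.8% for clocka and 60.7% for bmal1b. It lay at 79.6% for rorcb and 90.5% for clockb. The share of 64.7% for bmal1a is uncertain, because its readings in the double heterozygote and in lrp5-/- both lay below 6.57. Those of roraa and rorab are uncertain as well. They rest on lrp5-/- differences of -0.14 and -0.20, next to a robust SD of 0.20 for genes of like level.

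Profiles over the 4 arrays were also compared by the Euclidean distance between readings centred on each gene's mean, on the log2 scale. The closest pair of members that reached the measured level was roraa and rorab at 0.22, followed by bmal1b and rorcb at 0.25, clocka and clockb at 0.27 and clocka and npas2 at 0.28. The copies bmal1a and bmal1b were 0.54 apart, a distance that is uncertain because it rests on the low readings of bmal1a. Profiles of small span lie close in this distance whatever their shape. The readings of roraa and rorab spanned 0.36 and 0.63, and the unmeasured bmal2 lay 0.25 from roraa. A shared shape of roraa and rorab can therefore not be read from their distance. The arrays are 4, so such distances only describe them.

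Comparisons among the mutants do not use the wildtype array. Between the double heterozygote and eys-/-, 4 of 8 measured activators were lower by 2-fold or more (background 0.699%) and 0 were higher (background 1.48%). The lower ones were bmal1a by a difference of -2.20, bmal1b by -1.60, rorcb by -1.36 and npas2 by -1.19. The median of the 8 was -0.99 (0.01 over all measured genes), and all 8 were below 0, as were 47.9% of all measured genes. Between lrp5-/- and eys-/-, 2 of 8 were lower by 2-fold or more (background 0.507%) and 0 were higher (background 0.919%). The lower ones were bmal1a at -1.41 and rorcb at -1.06, with bmal1b at -0.97. Here the median was -0.52 (0.0051 over all measured genes) and 6 of 8 were below 0, as were 49.0% of all measured genes, while roraa and rorab differed by 0.08 and 0.03. The 2 comparisons share the eys-/- array. In both, bmal1a was measured through its eys-/- reading only, so the size of its differences is uncertain. The surface epithelium marker epcam was also lower than in eys-/- by 2-fold or more, at -1.14 in the double heterozygote and -1.16 in lrp5-/-. Its readings of 6.28 and 6.26 on these arrays lay below 6.57, so the size of both values is uncertain. The part of epcam in the differences of the activators was not tested.

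Between the double heterozygote and lrp5-/- 0 of 7 measured activators passed 2-fold in either direction (background 0.29% lower and 0.3% higher). All 7 were below 0, as were 47.9% of all measured genes, with a median of -0.40 (0.0089 over all measured genes). The differences ran from -0.63 for npas2 and -0.63 for bmal1b to -0.06 for clockb. The gene bmal1a was not measured in this comparison, since both of its readings lay below 6.57.

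Other clock genes, taken from a list of names by role, did not share one direction. Of 69 names 53 genes were matched. This list too was chosen with earlier results of these data known, so its counts describe it and are no test of it. In the double heterozygote 9 of 51 measured were higher by 2-fold or more (background 1.23%) and 4 were lower (background 0.489%), with a median difference of 0.08. In eys-/- 0 of 49 were higher (background 0.326%) and 2 were lower (background 0.307%), with a median of -0.17. In lrp5-/- 4 of 51 were higher (background 0.393%) and 1 was lower (background 0.278%), with a median of 0.07. Some genes entered these counts through 1 reading only. For nr1d4b that was the double heterozygote or lrp5-/- reading, as its wildtype reading lay below 6.57. For nfil3 and nfil3-5 in the double heterozygote it was the wildtype reading.

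Among the repressors of the activators, the Rev-erb family genes nr1d4a and nr1d4b stood on the opposite side of wildtype in the double heterozygote and lrp5-/-. The gene nr1d4b read 8.82 in the double heterozygote, 5.42 in eys-/- and 7.85 in lrp5-/-, against 6.40 in wildtype. Its relative nr1d4a read 9.01 in the double heterozygote, 6.28 in eys-/- and 8.22 in lrp5-/-, against 7.13 in wildtype. Both were highest where bmal1a and bmal1b were lowest, with differences from wildtype of 2.43 and 1.88 in the double heterozygote and 1.45 and 1.09 in lrp5-/-. In eys-/-, where bmal1a and bmal1b were near wildtype, nr1d4a differed by -0.85. The size of that difference is uncertain, because the eys-/- reading of nr1d4a lay below 6.57. Both the eys-/- and the wildtype reading of nr1d4b lay below 6.57, so it was not measured in that comparison, and the wildtype reading makes the size of its other differences uncertain. The other Rev-erb genes nr1d1, nr1d2a and nr1d2b differed by 0.59, 0.39 and -0.08 in the double heterozygote.

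The period and cryptochrome genes, some but not all of whose products inhibit Clock and Bmal, were mixed. The gene per1a differed from wildtype by 1.88 in the double heterozygote, -0.93 in eys-/- and 1.01 in lrp5-/-. For per1b the differences were 0.77, -1.01 and 0.39 in the same order of genotypes, and per2 and per3 passed 2-fold in none. Of the cryptochromes, cry2 was higher in the double heterozygote by 1.17, whereas cry3a and cry3b, older names cry1ba and cry1bb, were lower by a difference of -1.33 and -1.24. The readings of cry3a were 9.51 in the double heterozygote, 11.13 in eys-/- and 10.35 in lrp5-/-, against 10.83 in wildtype, so that the double heterozygote was lowest and lrp5-/- next, as it was for cry3b.

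Genes of the PAR bZIP family activate and Nfil3 proteins repress through D-box elements. The PAR bZIP genes dbpb and dbpa were higher in the double heterozygote by 1.61 and 1.08. The repressor genes nfil3-5 and nfil3 were lower in it, with differences of -1.50 and -1.18, and nfil3-5 was also lower in eys-/- at -1.09 and in lrp5-/- at -1.03. Unlike the activators, nfil3-5 thus passed 2-fold below wildtype in all 3 mutant arrays. These differences share the wildtype reading of 8.07. It read 6.57 in the double heterozygote, 6.99 in eys-/- and 7.04 in lrp5-/-, and passed 2-fold in no comparison among them. With more digits, the double heterozygote reading of nfil3-5, 6.5727, lay just below the measured level of 6.5728. The reading of nfil3 in the double heterozygote, 5.68, lay below the measured level, so the size of its difference is uncertain. Of the bHLH and Ciart repressor genes, bhlhe41, ciarta and ciartb were higher in the double heterozygote by 1.51, 1.46 and 1.41, and ciarta in lrp5-/- by 1.11.

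No measured gene of the other roles on the list passed 2-fold against wildtype. Among clock kinases and ubiquitin ligase genes the largest difference was that of fbxl3a, which encodes a cryptochrome ligase subunit, at -0.88 in the double heterozygote. Among transcriptional cofactors of the clock it was -0.29 for crebbpa in the double heterozygote. Of the melatonin genes, aanat1 differed by 0.58 in eys-/- and asmt2 by -0.57 in the double heterozygote.

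**Figure D3:**
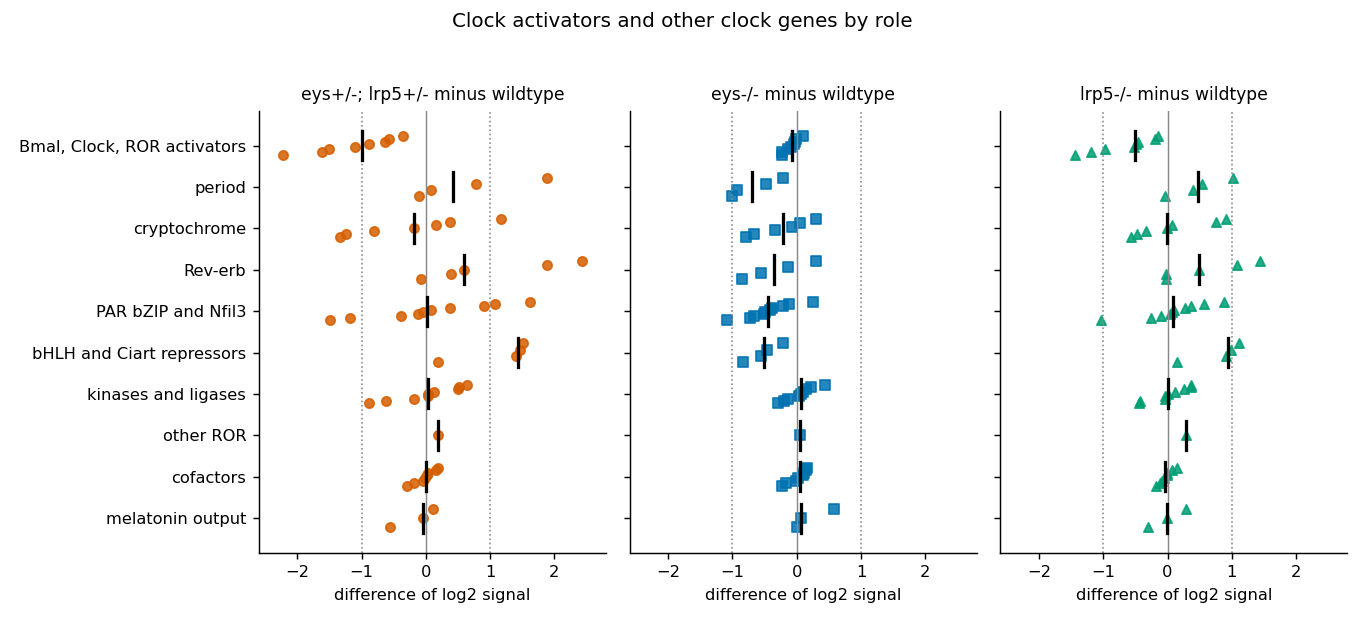
Difference of log2 signal from the wildtype array (horizontal axis) for the activators and for the other clock genes by role (rows), 1 point per measured gene in the double heterozygote, eys-/- and lrp5-/-. The black bar is the median of a row and dotted lines mark 2-fold. The activators lie left of 0 in the double heterozygote and lrp5-/-, where the bHLH and Ciart repressors lie right of it, with medians of 1.43 and 0.95.

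The order with the double heterozygote highest, then lrp5-/-, wildtype and eys-/- was found in 15 of 51 other clock genes, against 8.41% of genes measured on any array, and in 0 of 8 activators. The 15 were per1a, per1b, cry1b, cry2, nr1d1, nr1d4a, nr1d4b, dbpa, dbpb, hlfa, tefb, bhlhe40, bhlhe41, ciarta and ciartb. Their place of eys-/- below wildtype is part of the order they were picked for. In the double heterozygote and lrp5-/-, hlfa differed from wildtype by 0.08 and 0.04, and bhlhe40 by 0.19 and 0.15. These values are within the robust SDs of 0.23 and 0.20 over all measured genes. Other ranks also rest on small gaps. In lrp5-/- cry1b differed from wildtype by 0.07, and in eys-/- dbpa by -0.12, both within a robust SD of 0.20. Between the double heterozygote and lrp5-/-, nr1d1 differed by 0.11, within 0.17. For nr1d4b the eys-/- and wildtype readings were not measured against each other. The order with the double heterozygote lowest and lrp5-/- next was found in 7 of 51 other clock genes (13.7%), against 12.5% of genes measured on any array. Since the list was chosen with earlier results known, these counts are no test of it or of either order. The eys-/- differences of bmal1a, bmal1b, clocka and clockb, from -0.09 to -0.01, were within the robust SD for genes of like level, so no side of wildtype can be read from them.

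For the 4 activators that spanned 1 or more, the 5 nearest profiles were sought among 10052 other genes measured on any array. For bmal1b these were the microRNA gene mir726 at a distance of 0.022, tmx3a at 0.18, the opsin gene opn3 at 0.22, phf20a at 0.27 and mmrn2a, a gene of the endothelial matrix, at 0.31. For rorcb they were tmx3a at 0.12, mmrn2a at 0.16, phf20a at 0.20, mir726 at 0.23 and the orphan receptor gene nr2f6b at 0.26. The genes tmx3a, mmrn2a, phf20a and mir726 were thus near both members, which were themselves only 0.25 apart. For bmal1a the nearest were guca1ab.1 at 0.35, ttll6 at 0.36, mir726 at 0.54, hs3st3b1a at 0.57 and tmx3a at 0.68. The gene guca1ab.1 has near-identical copies, so its value is uncertain. For npas2 they were ankrd10b at 0.16, tgif1 at 0.17, kctd12b at 0.18, plcxd2 at 0.19 and ccl25a at 0.19. None of these genes is on the list of other clock genes. The readings of ttll6, phf20a and plcxd2 in the double heterozygote and in lrp5-/- lay below 6.57, so their distances are uncertain. Those of bmal1a itself lay below 6.57 on the same arrays, so all 5 distances from bmal1a are uncertain. The differences of mir726 from wildtype were -1.62 in the double heterozygote, -0.03 in eys-/- and -1.01 in lrp5-/-, next to -1.61, -0.01 and -0.98 for bmal1b. Because mir726 was picked as the nearest of 10052 profiles over 4 arrays, this closeness only describes these arrays.

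**Figure D4:**
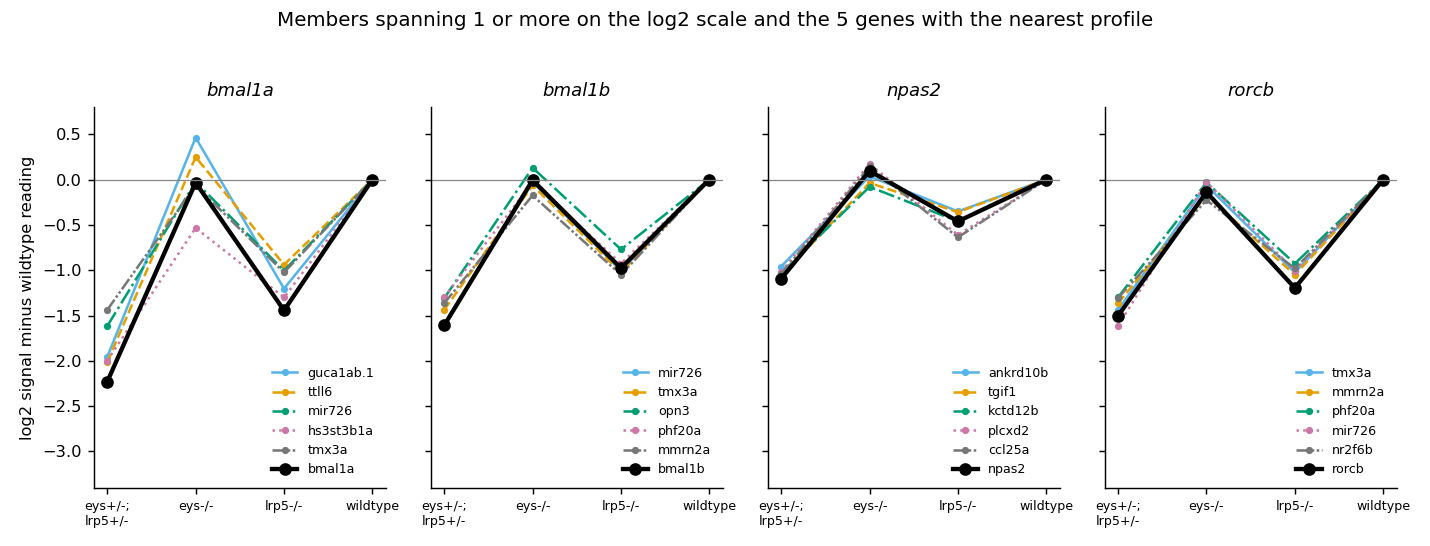
Log2 signal minus the wildtype reading (vertical axis) on the array of each genotype (horizontal axis) for bmal1a, bmal1b, npas2 and rorcb (thick black lines) and the 5 genes nearest to each in profile (thin lines). All plotted genes are lowest in the double heterozygote, and the lines of bmal1b and mir726 nearly coincide. The thin lines were picked for nearness to the member, so their shared low point follows from that choice.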

How the data were processed

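RNA of whole eyes was measured on 4 Affymetrix arrays, 1 for each genotype. Per the labels' protocols, the RNA came from a TRI Reagent extraction and was amplified and turned into labelled single-stranded cDNA. The deposited values are log2 signals. The submitters' processing notes name Transcriptome Analysis Console 4.0 and RMA, and their settings are not given in the sources used here. That they are log2 was inferred from their range and near-equal medians. RMA by its definition equalises the distributions of probe intensities, so a shift of most genes would be largely removed, and the summarised values keep small differences between arrays.

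Array annotation dated 2013 names 21661 of 75212 probe sets, 20806 with 1 symbol and 855 with several, and the other 53551 are unnamed here. Of the named ones, 20323 had a gene identifier in the RefSeq table of GRCz12tu, which updated 1 symbol and supplied older names. For each of 19260 genes the probe set of highest mean signal was kept. Differences, counts past 2-fold and distances were computed with Python 3.11.15, numpy 2.4.6, pandas 2.3.3 and, for a lowess trend, statsmodels 0.14.6. The robust SD is the scaled median absolute deviation of the differences over all measured genes, or over the 500 genes nearest in level where so said. The number of arrays limits the precision.

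Named genes are all members and other clock genes past 2-fold against wildtype or with the largest difference in their role. The 5 nearest profiles of members spanning 1 or more are named as well, with clone-style names skipped. The genes nr1d1, nr1d2a, nr1d2b, per2, per3, rorb, cry1b, hlfa, tefb, bhlhe40 and asmt2 were named besides. Alternatives were the level filter, the fold, the normalization, the probe sets of a gene and the array compared with. The call of 2-fold and the search for near profiles were tested on simulated data. Changes were planted there only in genes of higher mean signal than bmal1a, bmal1b, npas2 and rorcb. The simulation therefore does not cover the calls or near profiles of these members. The members and lists were chosen with earlier results of these data known.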

Additional observations from a re-analysis of the deposited data

How the results depend on the processing

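No member past 2-fold with the main settings changed sign under any alternative run. Centring, quantile renormalization, trend removal and averaging probe sets moved members by at most 0.113, and leaving out the filter on level changed none of their counts. At 3-fold the members lower than wildtype were 2 in the double heterozygote and 0 in lrp5-/-, and those lower than eys-/- were 2 in the double heterozygote and 0 in lrp5-/-. At 1.5-fold 2 members were lower in the double heterozygote than in lrp5-/-. A stricter filter, at 7.80, left 3 members lower in the double heterozygote and 1 in lrp5-/-, both against wildtype and against eys-/-. The gene bmal1a was then no longer measured. Shares of all measured genes are given only for 2-fold with the main settings. The counts under other folds, filters or references therefore have no background beside them.

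With the average of the remaining 3 arrays used instead of the wildtype array, the median of the members was -0.69 in the double heterozygote, 0.49 in eys-/- and -0.16 in lrp5-/-, with 2 lower in the double heterozygote, 1 higher in eys-/- (bmal1a at 1.19) and 0 lower in lrp5-/-. That average holds the low arrays themselves, and bmal1a was then unmeasured in the double heterozygote and in lrp5-/-. With that average, 18 values of the other clock genes crossed 2-fold in one direction or the other. Of these genes, per1b in eys-/- was at -0.99 after trend removal and per1a in lrp5-/- at 0.996 after quantile renormalization. By correlation in place of distance, 4 of the 5 nearest genes were shared for bmal1b and 2 for each of bmal1a, npas2 and rorcb. No paired analysis was possible because each genotype has 1 array, and for the same reason none could be left out. The low signal of bmal1a and bmal2 limits what their readings show.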
